A study of Mus musculus with 6 samples.

Results

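The ataxin and huntingtin genes were followed in RAW264.7 cells, an established mouse macrophage-like line, after transfection with a miR-342-3p mimic. They comprise Atxn1, Atxn1l, Cic, Atxn2, Atxn2l, Atxn3, Atxn7, Atxn10 and Htt, which are 9 of the 19938 genes tested. A probe set was used where the platform annotation assigned it to 1 gene with one of these symbols, which gave 10 of the 35556 probe sets. Atxn1 had 2 probe sets and each other gene had 1. Atxn1 was represented by the probe set chosen by its larger interquartile range over these 6 arrays, and the other is shown beside it. The genes themselves were selected by symbol, with their differences in these arrays known. All samples were of this line. They received the miR-342-3p mimic or, as the control group, a scrambled one, without any other stimulus in the labels, and total RNA was taken 18 h after transfection. Each group had 3 samples, with 1 Affymetrix whole-transcript array per sample. A mimic is a synthetic RNA that brings the microRNA well above its own level in the cell. RAW264.7 is a transformed line, so its response need not be that of primary macrophages, and the scrambled mimic stands in for the transfection itself. All values are log2 values after RMA, and all differences are miR-342-3p minus control on this scale. Genes were called at an FDR under 0.1.

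The control arrays lay close together, with correlations over all genes of 0.9982 to 0.9986, whereas those between the miR-342-3p arrays were 0.9909 to 0.9926. No 2 arrays were identical. The macrophage markers were all measured, with control means from 7.49 for Adgre1 to 12.68 for Cd68. Of these 8 markers, Itgam and Fcgr1 were lower (both by a log2 difference of -0.35), Spi1 was higher (0.35) and 5 were not called. Called markers were 37.5% of these 8, beside 11.6% of all genes tested. The neuron markers had control means from 5.70 for Tubb3 to 6.55 for Map2, and none of the 6 was called. Of 5 fibroblast markers, with control means from 5.53 for Dcn to 7.93 for Col1a1, only Pdgfra was called (0.49). Levels of different probe sets are not on one scale, so these ranges are given as a description. The part of these marker differences in the results below was not tested.

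Several ataxins and huntingtin carry a run of glutamines that causes neurodegeneration when its CAG repeat expands, but all are expressed widely and have roles outside neurons. Ataxin-1, its paralog ataxin-1-like and the HMG-box protein capicua, encoded by Cic, form a nuclear complex that represses transcription. Ataxin-2 and ataxin-2-like bind RNA and take part in stress granules, ataxin-3 removes ubiquitin from proteins, and ataxin-7 anchors the deubiquitinase module of the SAGA coactivator complex. Ataxin-10 is an armadillo-repeat protein whose disease repeat lies in an intron, and huntingtin is a large scaffold for vesicle transport and autophagy.

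The mimic has the sequence of mature miR-342-3p, which is shown because its seed (bases 2 to 8, in capitals) sets which transcripts it can pair with. In GRCm38.p6 it lies on the plus strand at chr12:108658680-108658702, within the Evl gene, and RefSeq lists 0 other mouse microRNAs with this seed among 1738 mature sequences.
miR-342-3p: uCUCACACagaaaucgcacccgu
The 3′ UTR sequences of Atxn1l and Atxn2l were read from the study's list of predicted targets, as far as their first 399 bases, of which 46 are masked as N in Atxn2l. The stretch of Atxn2l held 1 match to the seed followed by an A (an 8-mer match, in capitals), at bases 357 to 364 counted from the start of the UTR. That of Atxn1l held no match of 7 or 8 bases. The sequence is given in the sense direction.
Atxn2l, 3′ UTR bases 342 to 368: taacttgagtgttctGTGTGAGAccaa
The 3′ UTRs of the other genes were not analysed here, and a match is a description of the letters and not a measured site.

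Atxn1, the corepressor whose repeat expansion causes a form of spinocerebellar ataxia, was the only one of the 9 genes called, and its probe sets gave different results. Over all genes tested 11.6% were called, 7.42% lower and 4.14% higher. Probe set 10408935 read 8.14, 8.27 and 8.11 in the control samples 1 to 3 and 6.41, 6.83 and 7.25 in the miR-342-3p samples 1 to 3. Every miR-342-3p value lay below every control value, by at least 0.86, and sample 3 was the nearest to the controls. The log2 difference was -1.34 (standard error 0.18, 95% confidence interval -1.75 to -0.94, limma FDR = 0.0118), which leaves 39.4% of the control level. This was the second largest fall of all genes (rank 2). The range that chose this probe set was taken over the same 6 arrays, and the value was known when the genes were chosen, so it is given as a description. In a fit of all probe sets, where none is chosen, limma gave an FDR of 0.079 for it, and 1 of the 10 probe sets of these genes was called beside 2.23% of all probe sets (1.5% lower and 0.728% higher).
Probe set 10408937, the other of Atxn1, read 9.17, 9.06 and 8.99 in the control samples and 8.95, 9.04 and 9.35 in the miR-342-3p samples. The groups overlapped, and miR-342-3p sample 3 was the highest of all. Its log2 difference was 0.039 (standard error 0.12, limma FDR = 0.862 in the fit of all probe sets). This probe set had the higher mean of the pair. The annotation assigns both to the same RefSeq transcripts of Atxn1, and the second also to further mRNA records. Within each array the first minus the second was -0.90 ± 0.12 in control and -2.28 ± 0.23 in miR-342-3p samples (SD, n = 3 each), a change of -1.38. Such a disagreement was rare. Over the 999 genes with several probe sets, the median of the largest difference in log2 change between the chosen probe set and another was 0.097, and a value of at least 1.38 was found in 2 genes, Atxn1 included. Averaging the probe sets of each gene gave Atxn1 a log2 difference of -0.65 (limma FDR = 0.037), and taking the one with the higher mean gave 0.039 (limma FDR = 0.829).

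**Figure D1:**
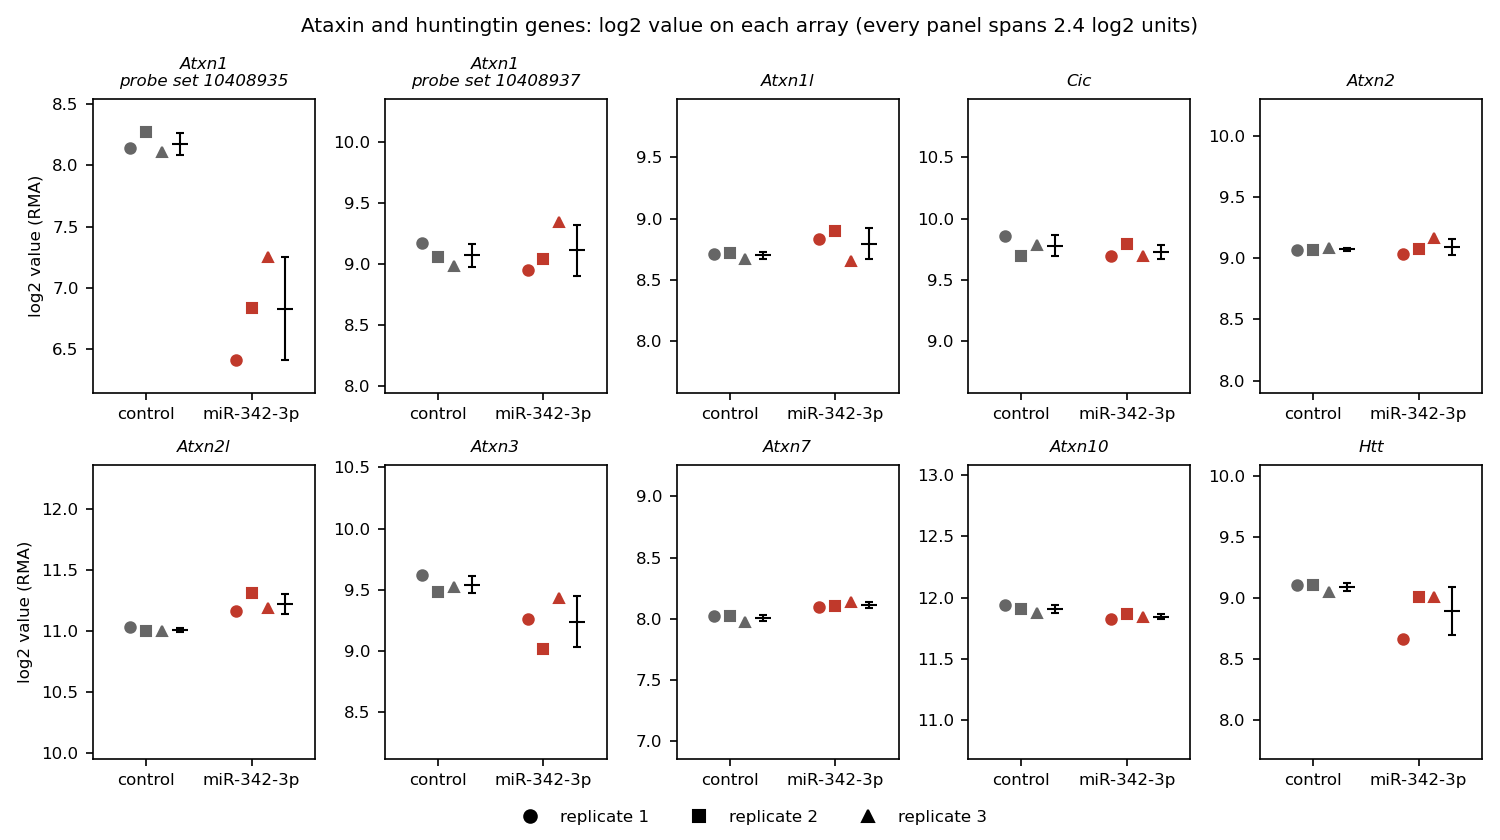
Log2 value (RMA) of each probe set on the 3 control (grey) and 3 miR-342-3p (red) arrays; symbols give the replicate, and the black bar is the mean ± SD, n = 3. Every panel spans the same number of log2 units, so that heights compare between panels. Probe set 10408935 of Atxn1 drops from a mean of 8.18 to 6.83, whereas its probe set 10408937 stays at 9.07 and 9.11 with overlapping groups.

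Atxn1l encodes ataxin-1-like, which shares the capicua-binding domain of ataxin-1. It read 8.71, 8.72 and 8.67 in control and 8.83, 8.90 and 8.66 in miR-342-3p samples. Samples 1 and 2 lay above the controls and sample 3 just below them. The log2 difference was 0.095 (95% confidence interval -0.097 to 0.29, limma FDR = 0.471). It was 0.044 without miR-342-3p replicate 2 and 0.16 without replicate 3. Cic, the DNA-binding partner of both, read 9.86, 9.69 and 9.78 in control and 9.70, 9.80 and 9.70 in miR-342-3p samples. These ranges overlapped, with a log2 difference of -0.050 (95% confidence interval -0.23 to 0.13, limma FDR = 0.684). It ranged from -0.0087 without control replicate 1 to -0.092 without control replicate 2, and its sign turned when quantile normalization was repeated (0.016).
Relative to Atxn1l on the same array, probe set 10408935 of Atxn1 went from -0.53 ± 0.068 in control to -1.97 ± 0.51 in miR-342-3p samples (SD, n = 3 each). Relative to Cic it went from -1.60 ± 0.16 to -2.90 ± 0.42.

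Capicua represses ETS factors and feedback inhibitors of MAPK signaling. Of 11 measured genes known to be repressed by it, Etv5 was called lower, none was called higher and 10 were not called, with a median log2 difference of 0.089 against 0.069 over all genes tested. The share called was 9.09%, beside 11.6% of all genes. Etv5, an ETS transcription factor, read 9.70, 9.76 and 9.60 in control and 9.10, 9.33 and 9.49 in miR-342-3p samples. Its log2 difference was -0.38 (standard error 0.11, limma FDR = 0.076). Its second probe set gave -0.25 (limma FDR = 0.212 in the fit of all probe sets). The paralogs Etv1 (0.31, limma FDR = 0.204) and Etv4 (-0.14, limma FDR = 0.299) were not called. The second probe set of Etv1 gave 0.33 (limma FDR = 0.181 in the fit of all probe sets). With the probe set of the highest mean for each gene, 1 gene of this list was called higher. The phosphatase gene Dusp4, an inhibitor of MAPK signaling, had a log2 difference of 0.27 (limma FDR = 0.11). Spred1, another such inhibitor, was at -0.28 (limma FDR = 0.122), with all miR-342-3p values below the controls.
The known octamer of capicua was searched on both strands as TGAATGAA, TGAATGGA, TCAATGAA and TCAATGGA, in RefSeq promoters from 250 bases before to 50 after the start of a gene (GRCm38.p6). It was present in 3.84% of all 32851 promoters. Of the 7 listed target genes with a promoter in the table, 3 held it (3 of their 9 promoters), namely Dusp6, Spry2 and Ptpn9. They are shown because the complex of ataxin-1 and capicua is known to act through this motif, in capitals here and read in the direction of the gene.
Dusp6, chr10:99263199-99263222, plus strand: agaatgtaTCCATTGAgacgctgg
Dusp6, chr10:99263224-99263247, plus strand: tgtttgtaTCCATTGAggagctgc
Spry2, chr14:105896858-105896881, minus strand: gcctcttgTTCATTGAgaaaaaaa
Ptpn9, chr9:56994974-56994997, plus strand: tcagtttcTCAATGGAgccgtggg
None of these genes was called. Dusp6, a phosphatase of ERK, had a log2 difference of 0.18 (limma FDR = 0.317), the receptor signaling inhibitor Spry2 of -0.10 (limma FDR = 0.495) and the phosphatase gene Ptpn9 of 0.13 (limma FDR = 0.364). The promoters of Etv5 in the table did not hold these letters. Among the 8 ataxin and huntingtin genes with a promoter in the table, 1 held the octamer, Atxn2, at 1 of its promoters (1 of the 11 promoters of these genes).
Atxn2, chr5:121738312-121738335, plus strand: ttttatgtTGAATGGAtcacattt

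The partners and regulators of ataxin-1 were measured for 12 of 15 listed genes. None was called by limma, beside 11.6% of all genes tested, whereas 2 had an unadjusted p under 0.05. The median log2 difference was -0.085, against 0.069 over all genes. Kat5, an acetyltransferase subunit, had the largest difference of this list, 0.27 (standard error 0.11, limma FDR = 0.173). It was 0.14 without miR-342-3p replicate 2, and it passed the threshold without replicate 3 (0.35, limma FDR = 0.087) and with repeated quantile normalization (limma FDR = 0.088). Pum2, an RNA-binding repressor of the Pumilio family, was at -0.088 (limma FDR = 0.505), and the corepressor deacetylase Hdac3 at -0.21 (limma FDR = 0.154).

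Atxn2, which encodes an RNA-binding protein that partners with the poly(A)-binding protein, had the smallest log2 difference of the 9 genes. It read 9.07, 9.06 and 9.08 in control and 9.04, 9.08 and 9.16 in miR-342-3p samples. The groups overlapped, with a difference of 0.021 (95% confidence interval -0.14 to 0.19, limma FDR = 0.858). The sign turned with each array centered on its median (-0.0076) and without miR-342-3p replicate 3 (-0.015).
Its paralog Atxn2l, the gene with the seed match printed above, read 11.03, 11.00 and 11.00 in control and 11.16, 11.31 and 11.19 in miR-342-3p samples. All miR-342-3p values lay above all control values, by at least 0.13. The log2 difference was 0.21 (standard error 0.076, 95% confidence interval 0.038 to 0.38), and the gene was not called (limma FDR = 0.134). Repeated quantile normalization gave 0.27 (limma FDR = 0.052), and a trend and robust prior in limma gave an FDR of 0.054, both past the threshold. With each array centered on its median Atxn2l was at 0.18 (limma FDR = 0.288), and with every probe set tested its limma FDR was 0.194. Atxn2 minus Atxn2l on the same array went from -1.94 ± 0.021 in control to -2.13 ± 0.11 in miR-342-3p samples (SD, n = 3 each), a change of -0.19. An exact permutation test, two-sided, gave p = 0.1 for it, the smallest p that 3 arrays against 3 allow. The pair of Atxn1 with Atxn1l and that with Cic had the same exact permutation p, which remained 0.1 after adjustment over the 3 comparisons, and are a description as they carry the chosen probe set.

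Of 11 measured RNA-binding and stress granule partners of ataxin-2, 3 were lower, 1 was higher and 7 were not called, with a median log2 difference of -0.15. The share called was 36.4%, beside 11.6% of all genes tested (7.42% lower and 4.14% higher). Tia1, a nucleator of stress granules, read 8.21, 8.17 and 8.25 in control and 7.50, 7.64 and 7.83 in miR-342-3p samples, without overlap. It fell by 0.55 on the log2 scale (standard error 0.096, limma FDR = 0.021). Its paralog Tial1 fell by 0.41 (limma FDR = 0.035) and Tardbp, which encodes the RNA-binding protein TDP-43, by 0.39 (limma FDR = 0.054). Usp10, a deubiquitinase that binds the stress granule protein G3BP1, rose by 0.25 (standard error 0.072, limma FDR = 0.078), a call lost with arrays centered (limma FDR = 0.16) or every probe set tested (limma FDR = 0.136). G3bp1 itself (-0.036), the helicase gene Ddx6 (0.0054) and the adaptor Lsm12 (-0.023) were not called. The poly(A)-binding protein gene Pabpc1 had a log2 difference of -0.18 (limma FDR = 0.172).

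Atxn3 encodes a deubiquitinase with a Josephin domain. It read 9.62, 9.49 and 9.52 in control and 9.26, 9.02 and 9.44 in miR-342-3p samples. All miR-342-3p values lay below the controls, but sample 3 by only 0.052. The log2 difference was -0.30 (standard error 0.11, 95% confidence interval -0.55 to -0.054), and the gene was not called (limma FDR = 0.136). The change from the control mean was -0.28, -0.52 and -0.11 in samples 1 to 3. Without replicate 2 the difference was -0.19 (limma FDR = 0.163) and without replicate 3 it was -0.40 (limma FDR = 0.042), which passed the threshold.
Of 8 measured ubiquitin pathway partners of ataxin-3, none was called by limma, beside 11.6% of all genes tested. Of these 8, 1 had an unadjusted p under 0.05. This was Ufd1, a cofactor of the segregase p97, with a log2 difference of -0.32 (standard error 0.11, limma FDR = 0.114). Ufd1 was at -0.20 without miR-342-3p replicate 1, which was not called. It passed the threshold without replicate 2 (limma FDR = 0.082) or 3 (limma FDR = 0.076), and with repeated quantile normalization, the filter on low values or the trend and robust prior (limma FDR from 0.092 to 0.098). Vcp, which encodes p97, was at -0.093 (limma FDR = 0.469), and Rad23b, a shuttle factor of ubiquitylated proteins, at 0.092 (limma FDR = 0.411).

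Atxn7 read 8.02, 8.02 and 7.97 in control and 8.09, 8.11 and 8.14 in miR-342-3p samples. The miR-342-3p values all lay above the controls, by at least 0.074, and differed little among themselves. Of all genes, 21.4% were likewise higher without overlap. The changes from the control mean, 0.089 to 0.13, were smaller than the largest difference between array medians (0.15). The log2 difference was 0.11 (standard error 0.070, 95% confidence interval -0.049 to 0.27, limma FDR = 0.331). It was 0.17 with repeated quantile normalization and 0.080 with each array centered on its median. The coding gene Thoc7 overlaps Atxn7 in RefSeq, and its part in the probe set was not tested.
Of 19 measured genes of the SAGA complex beside ataxin-7, 2 were lower, none was higher and 17 were not called (median log2 difference -0.050). Called genes were 10.5% of this list, beside 11.6% of all genes tested. Kat2b, an acetyltransferase subunit, read 7.77, 7.76 and 7.75 in control and 7.23, 7.29 and 7.47 in miR-342-3p samples. It fell by 0.43 (standard error 0.083, limma FDR = 0.028), whereas its paralog Kat2a had a difference of 0.13 (limma FDR = 0.323). Trrap, the scaffold subunit, was called at -0.45 (limma FDR = 0.072). However, its second probe set, with the higher mean, gave 0.15 (limma FDR = 0.294 in the fit of all probe sets). Usp22 (-0.048) and Eny2 (-0.18), subunits of the module that ataxin-7 anchors, were not called (limma FDR = 0.764 and 0.218). Atxn7l3, listed below with the relatives of ataxin-7 and not in this list, was not called either (0.062, limma FDR = 0.775).

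Atxn10 read 11.94, 11.91 and 11.87 in control and 11.83, 11.87 and 11.85 in miR-342-3p samples. The miR-342-3p values all lay below the controls, by only 0.0053. Its difference was -0.061 (standard error 0.070, 95% confidence interval -0.22 to 0.098, limma FDR = 0.571). It was -0.011 with repeated quantile normalization and -0.090 with each array centered on its median. Of 5 partners of ataxin-10, the mitotic kinase Aurkb was lower (-0.41, standard error 0.074, limma FDR = 0.025) and 4 were not called. That is 20% of this list called, beside 11.6% of all genes tested. The ciliary gene Iqcb1 was at -0.38 (standard error 0.13, limma FDR = 0.113), without overlap of the groups. The kinase Plk1 (-0.10, limma FDR = 0.398) and Ogt, the O-GlcNAc transferase (-0.12, limma FDR = 0.398), were not called.

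Htt, the huntingtin gene, read 9.11, 9.11 and 9.05 in control and 8.67, 9.01 and 9.004 in miR-342-3p samples. The miR-342-3p values lay below the controls, samples 2 and 3 by a small margin (0.043 at the closest). Its difference was -0.20 (standard error 0.10, 95% confidence interval -0.43 to 0.039), and the gene was not called (limma FDR = 0.256). Sample 1 carried most of it, with a change of -0.42 against -0.081 and -0.085 in samples 2 and 3, and without replicate 1 the difference was -0.083 (limma FDR = 0.443).
Of 11 measured partners of huntingtin, 2 were lower, none was higher and 9 were not called (median log2 difference -0.013). Called partners were 18.2% of this list, beside 11.6% of all genes tested. Setd2, a histone H3 methyltransferase that binds huntingtin, read 8.34, 8.35 and 8.32 in control and 7.21, 6.94 and 8.21 in miR-342-3p samples. Sample 3 of the miR-342-3p group lay near the controls. The log2 difference of Setd2 was -0.89 (standard error 0.27, limma FDR = 0.093). Its second probe set gave -0.54 (limma FDR = 0.28 in the fit of all probe sets). The call was lost with probe sets averaged (limma FDR = 0.117) or the one of the higher mean (limma FDR = 0.172). It was also lost with the trend and robust prior (limma FDR = 0.127) or array weights (limma FDR = 0.138). It held with arrays centered, repeated quantile normalization or the filter on low values (limma FDR from 0.079 to 0.089). Zdhhc17, a palmitoyltransferase of huntingtin, fell by 0.29 (standard error 0.077, limma FDR = 0.063). Its second probe set gave -0.37 (limma FDR = 0.187 in the fit of all probe sets). The endocytic adaptor Hip1 had a log2 difference of -0.26 (limma FDR = 0.119) and the trafficking partner Hap1 of 0.0061 (limma FDR = 0.961).

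The relatives of the ataxins and other repeat disorder genes were measured for 12 of 13 listed genes. Of these, 3 were higher, none was lower and 9 were not called, and the median log2 difference was 0.090. The share called was 25%, beside 11.6% of all genes tested (7.42% lower and 4.14% higher). Rere, which encodes a corepressor related to atrophin-1, read 8.24, 8.15 and 8.16 in control and 8.61, 8.57 and 8.51 in miR-342-3p samples, and rose by a log2 difference of 0.38 (standard error 0.074, limma FDR = 0.029). Atn1, the atrophin-1 gene, rose by 0.24 (standard error 0.071, limma FDR = 0.083) and Jph3, a junctophilin gene, by 0.28 (standard error 0.080, limma FDR = 0.078). Both of these calls were lost with arrays centered (limma FDR = 0.157 for Atn1 and 0.103 for Jph3) or every probe set tested (limma FDR = 0.139 and 0.148). The control mean of Jph3 was 7.01, below the median of all genes on each control array (7.09 to 7.11). The relatives of ataxin-7, namely Atxn7l1, Atxn7l2, Atxn7l3 and Atxn7l3b, had differences from 0.062 to 0.085 and were not called. The Josephin-domain relatives of ataxin-3, Josd1 (0.31, limma FDR = 0.158) and Josd2 (0.27, limma FDR = 0.227), were not called. Tbp, whose product is the TATA-binding protein, was at -0.013 (limma FDR = 0.914).

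**Figure D2:**
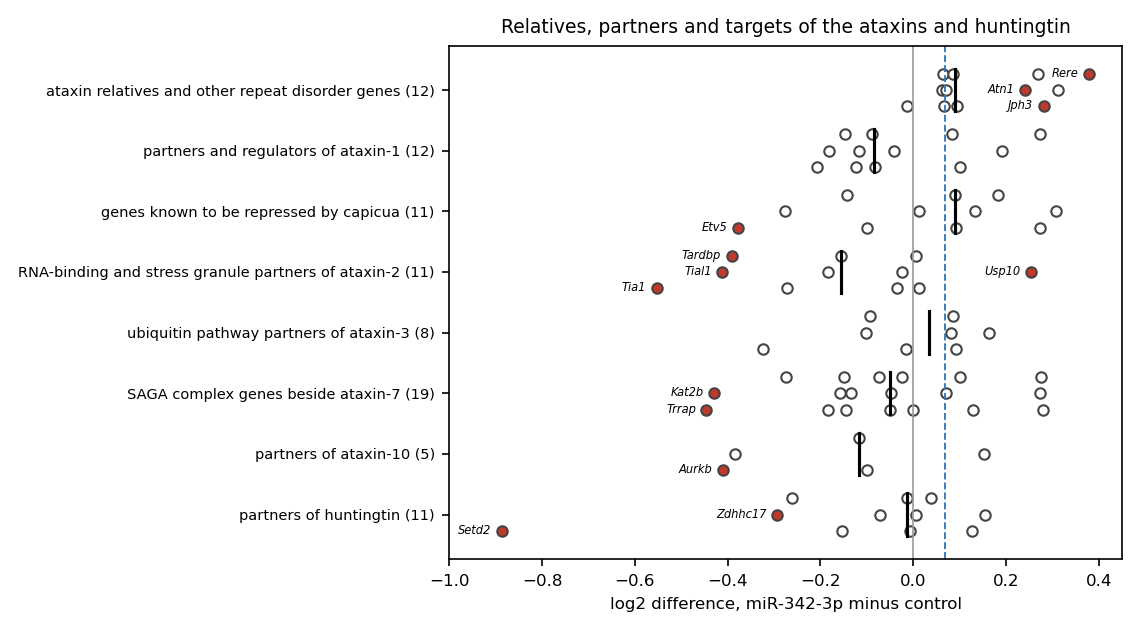
Log2 difference (miR-342-3p minus control) of each measured gene of the 8 lists, with the number measured in parentheses; red points were called at an FDR under 0.1 and are named, open points were not called, black lines are list medians and the blue dashed line is the median of all genes tested (0.069). Called genes lie on the right in the list of ataxin relatives and other repeat disorder genes (Rere, Jph3, Atn1). The relatives of ataxin-7 and ataxin-3 in it were not called. Elsewhere called genes lie mostly on the left, with Usp10 on the right.

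Over these 8 lists, 9 of 89 measured genes were lower and 4 were higher, which is 14.6% against 11.6% of all genes tested. The median log2 difference was -0.015, against 0.069 over all genes. Without control replicate 1, 2 or 3, none of the 89 was called lower or higher. Over all genes, these fits called 102, 115 and 140 lower and 100, 88 and 94 higher. With all arrays the counts were 1479 and 825, so the loss was not particular to these lists. Atxn1 passed the threshold by probe set 10408935 with each array left out in turn. That probe set was chosen over these 6 arrays with its fall known, so these fits are a description and do not test the choice. The other probe set of Atxn1, 10408937, had a log2 difference of 0.039 (limma FDR = 0.862 in the fit of all probe sets). Etv5, Trrap and Setd2 were also not called without miR-342-3p replicate 1 or without replicate 2, nor was Jph3 without replicate 1. With every probe set tested, Tia1, Kat2b, Aurkb and Rere were called and the other 9 were not.

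**Figure D3:**
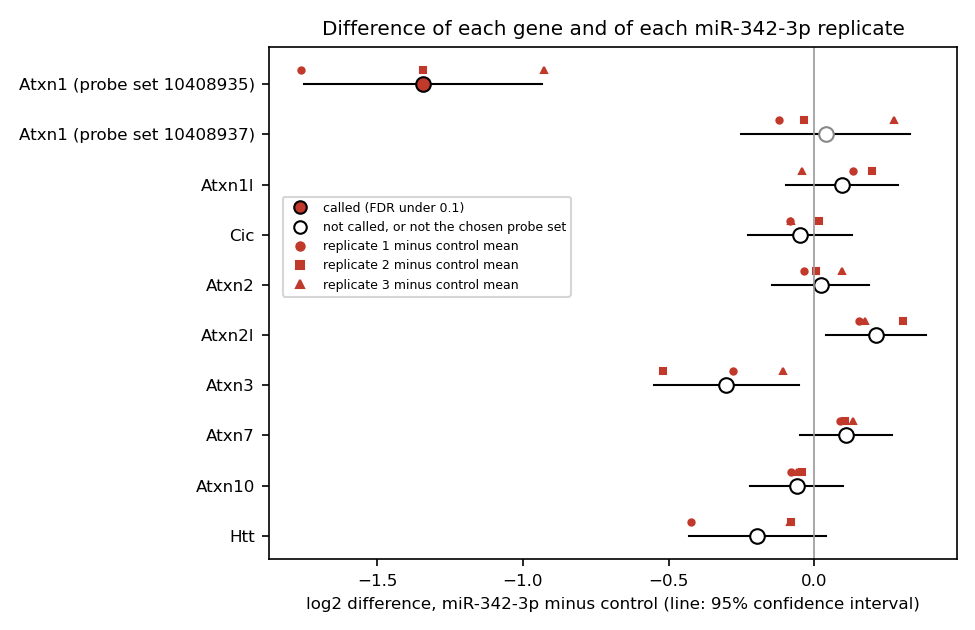
Log2 difference (miR-342-3p minus control) of each ataxin and huntingtin gene, with its 95% confidence interval from limma; small red symbols are each miR-342-3p replicate minus the control mean. Probe set 10408935 of Atxn1 stands at -1.34 and is the only one called. All other log2 differences lie between -0.30 and 0.21, and replicate symbols of other genes reach -0.52 (Atxn3) and 0.30 (Atxn2l). Probe set 10408937 of Atxn1 has an interval only from the fit of all probe sets.

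Among the 9 genes, Atxn1 was lower by its chosen probe set 10408935, none was higher and 8 were not called. The other probe set of Atxn1, 10408937, had overlapping groups and a log2 difference of 0.039. The median log2 difference of the 9 genes was -0.050, against 0.069 over all genes. The 8 genes not called had log2 differences from -0.30 to 0.21 and FDR values from 0.134 to 0.858. The groups did not overlap in Atxn1 (probe set 10408935), Atxn3, Atxn10 and Htt, which were lower in all 3 miR-342-3p samples, nor in Atxn2l and Atxn7, which were higher. These are 4 and 2 of 9 genes, beside 15.5% and 21.4% of all genes (36.9% in either direction). The miR-342-3p samples were more spread than the controls in Atxn1 (SD 0.42 against 0.088), Htt (0.20 against 0.033), Atxn3 (0.21 against 0.069), Atxn1l (0.125 against 0.028), Atxn2l (0.081 against 0.017) and Atxn2 (0.066 against 0.010). They were less spread in Cic (0.057 against 0.084), Atxn7 (0.023 against 0.026) and Atxn10 (0.020 against 0.036). The sample with the largest change was not the same. It was replicate 1 for Atxn1 and Htt, replicate 2 for Atxn3 and Atxn2l, and replicate 3 for Atxn7. The study calls the 3 samples of each group independent experiments. The limma p-values set each difference against the spread between these samples, moderated by a prior taken from all genes (4.79 prior degrees of freedom).
The genes with a pattern most like Atxn1 over the 6 arrays were Ppp6c, a protein phosphatase subunit (Pearson r = 0.9988), Msmo1, an enzyme of cholesterol synthesis (r = 0.9988), and Cenph, a kinetochore gene (r = 0.9985). Their log2 differences were -0.47, -0.86 and -1.17. These correlations are a description, since all arrays share the same group difference.

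**Figure D4:**
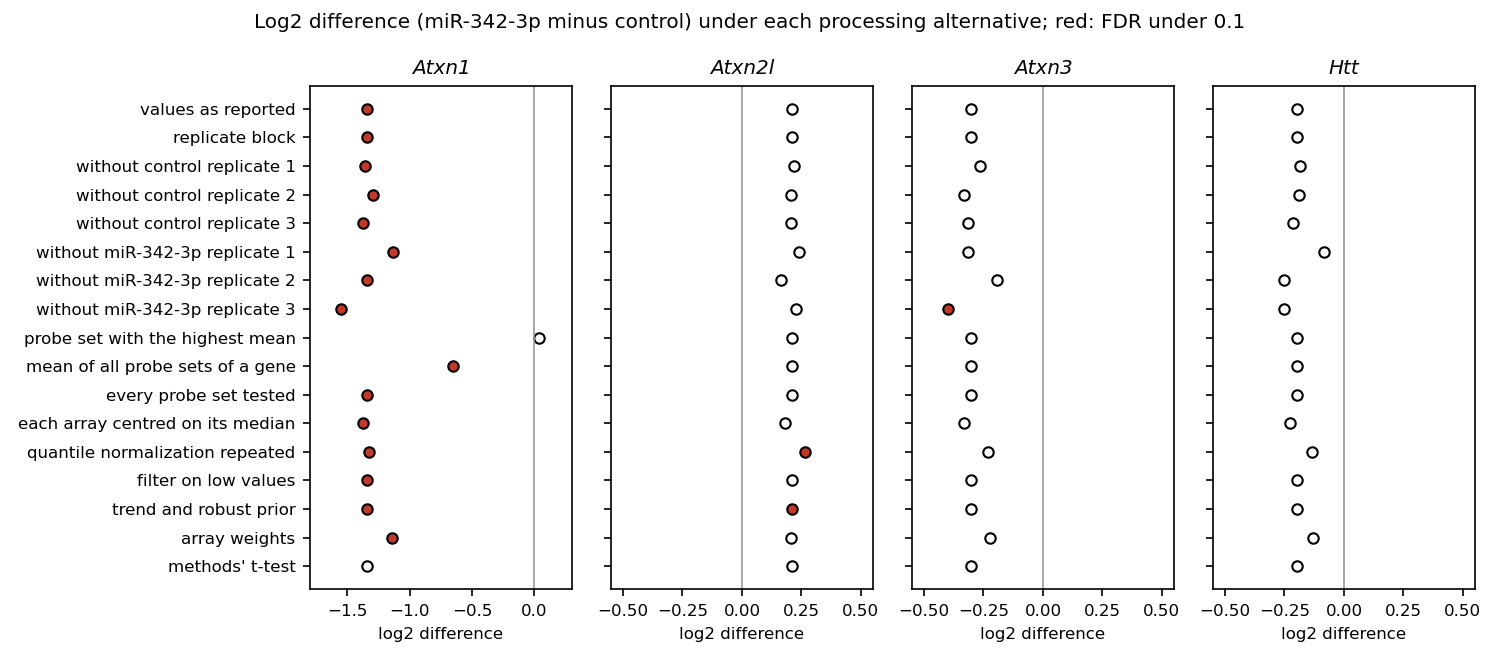
Log2 difference of Atxn1, Atxn2l, Atxn3 and Htt with the values as reported and under each processing alternative; red points have an FDR under 0.1 and open points do not, and the axis of Atxn1 is wider than the others. Atxn1 stays between -1.55 and -1.13 except with another use of its probe sets (-0.65 and 0.039), and Htt is never past the threshold.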

How the data were processed

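Expression was measured with Affymetrix mouse gene arrays. The deposited values are on a log2 scale, as the authors obtained them by RMA in R, which corrects background, quantile-normalizes the arrays and summarizes the probes of each set. Tool versions are not given in the sources used here. With 3 arrays per group, the number of arrays bounds the precision. Groups and replicate numbers came from the sample titles. The platform annotation listed a single gene for 21789 of the 35556 probe sets, several for 1621 and none for 12146. Probe sets with several genes named none. Entrez IDs matched the RefSeq gene table of GRCm38.p6 for 21698 probe sets and changed 0 symbols. As in the methods of the study, a gene with several probe sets was represented by the one whose interquartile range over the arrays was largest. The group difference was fitted for all 19938 genes in limma (lmFit, eBayes; version 3.58.1, R version 4.3.3), with Benjamini-Hochberg FDR over all of them. No filter on level was used. The steps were tested on simulated data. Plots were made in Python version 3.11.15 (matplotlib version 3.10.9).

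The genes and lists were chosen with earlier results of these data known. All 9 genes are named, with up to 4 called genes of each list by size of the difference (the one with the largest difference where none was called) and the 3 genes most like a called member. Other genes of the lists, and the markers, were named after their values were seen. Genes listed but not measured had no probe set with a single gene of that symbol. The alternatives were the replicate block, each array left out, other uses of probe sets, 2 scalings, a filter at the lower quartile of the gene means, a trend and robust prior, array weights and the methods' t-test. Sequences came from RefSeq tables (GRCm38.p6) and the study's list of predicted targets. The authors' fold changes and p-values in the tables of the study were not used.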

Additional observations from a re-analysis of the deposited data

How the results depend on the processing

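Among the ataxin and huntingtin genes, 1 was called lower and none higher. No gene was called lower with the probe set of the highest mean (0) or with the methods' t-test after adjustment (0, with Atxn1 at an FDR of 0.138 and 3 genes at an unadjusted p under 0.05), and leaving out 1 array gave 1 to 2. Atxn2l made 1 higher with repeated quantile normalization and 1 with the trend and robust prior. Atxn1 turned to 0.039 with the probe set of the highest mean, as did Trrap (0.15). Cic turned to 0.016 with repeated quantile normalization. Atxn2 was -0.0076 with arrays centered and -0.015 to 0.049 with 1 array left out. These reversals other than Trrap and Atxn1 are of differences that were not called.

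Of the 89 genes of the lists, 9 were lower and 4 higher. The lower count was 3 with every probe set tested, 15 with the filter, 15 with the trend and robust prior, 0 with the methods' t-test and 0 to 16 with 1 array left out. The higher count was 1 with every probe set tested, 1 with arrays centered, 11 with repeated quantile normalization, 0 with the methods' t-test and 0 to 8 with 1 array left out. In the fit with the replicate number as a block, 8 were lower and 1 higher, and 1 member was lower (Atxn1, FDR = 3.19e-04). Jph3, Atn1, Usp10 and Zdhhc17 were not called in it, and the first 3 of these were not called with arrays centered. The numbers share no stated batch, same-numbered samples deviated with correlations of -0.31, -0.16 and -0.11, and no array correlated best with its own number (0 in either group), so they were not taken as pairs. The cause of these changes was not tested.

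Over all genes, 1479 were lower and 825 higher. The counts were 314 and 201 among the same probe sets with every probe set tested, 22 and 26 with the methods' t-test, 1379 and 408 with arrays centered, and 1424 and 1817 with repeated quantile normalization. With 1 array left out they ranged from 102 to 2422 and from 88 to 2104. The lowest were those without a control array (102 to 140 and 88 to 100). The share of lower calls was 64.2%, against 77.2% and 43.9% with these scalings, under which the median of all genes was 0.040 and 0.089.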
